A study of Mus musculus with 12 samples.

Results

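Alas2, Slc4a1, Klf1, Epb42, Rhag, Rhd, Ermap and Gata1 are genes of the red cell lineage, and their transcripts were followed in the livers of mice with and without the cytokine gene Tgfb1 and the interferon gene Ifng. The 8 genes were chosen by symbol as a marker list of erythroid cells, out of 18193 genes that have a probe set with a single gene symbol. Each gene was read from the probe set with the highest mean over the arrays, and all 8 passed the filter on low levels that left 12760 genes for testing. Of the 8, Alas2 alone passed the test in any comparison over all 12 arrays: it was higher in livers lacking Tgfb1 alone.

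Liver RNA of 12 mice was measured on 12 oligonucleotide arrays of 45101 probe sets, in 4 groups of 3 arrays. The wild type group is BALB/c control liver. The group labelled TGFB KO lacks Tgfb1, the group labelled IFNko TGFB1 KO lacks both Tgfb1 and Ifng, and the group labelled INFko TGFB+ lacks Ifng and keeps Tgfb1. The sources used here do not state how many intact Tgfb1 copies the INFko TGFB+ mice have. The labels give no age, so the stage of life at which the livers were taken is not known here. The design text speaks of TGF-β1+/+ littermates as controls and of 3 mice in each group.

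Red cells form in the bone marrow of adult mice and in the liver of the fetus and newborn, and the spleen and liver can take up the work again under demand. GATA1 and KLF1 are the transcription factors that switch on the red cell programme, ALAS2 starts the heme synthesis that serves hemoglobin, and the Rh proteins, band 3 and protein 4.2 build the red cell membrane. In whole tissue a lower or higher signal may come from the number of red cell precursors or from the RNA in each, and these cannot be told apart here.

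The library IFNko TGFB1 KO 1 stood apart from the other 11, with a median signal of 61.3 against 33.8 to 42.6, and a rank correlation with the others of 0.754 to 0.809 against 0.816 to 0.912 among them. Wild type arrays had a mean Tgfb1 signal of 319 ± 184, TGFB KO of 68.1 ± 21.2, INFko TGFB+ of 188 ± 29.5 and IFNko TGFB1 KO of 40.2 ± 13.9 (SD over 3 arrays). Mean Ifng signal was 18.4 ± 10.8, 127 ± 64.5, 5.36 ± 3.72 and 60.9 ± 20.5 in the same order, so Ifng read higher in the arrays labelled IFNko TGFB1 KO than in wild type. Where the Ifng probes lie relative to the disruption is not stated, and the reading therefore does not check the label. The lowest signal of any hepatocyte marker was 826, and their summed signal was 131263 to 133006 in wild type, 99074 to 119777 in TGFB KO, 113395 to 140169 in INFko TGFB+ and 72443 to 117485 in IFNko TGFB1 KO.

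GATA1 recognises GATA letters in the DNA of its targets, so the windows around the start sites were searched for them. RefSeq's table for GRCm38.p6 holds a window of 300 bases, 250 before and 50 after a start site, for 7 of the 8 genes; Slc4a1 has none in it. The letters searched were GATA after A or T and before A or G, that is AGATAA or its form with T in front, TGATAA, and likewise AGATAG or its form with T in front, TGATAG. On either strand they occurred in the windows of 6 of these 7 genes and in 29.8% of the 32851 windows of the table. Gata1 itself was the gene without them. The 6 stretches of 30 bases around the match nearest the start site are shown because such a match is what the windows of these 6 genes share. They are written 5′ to 3′ on the strand of the gene, with the GATA letters or their reverse complement in capitals.
Alas2, chrX:150547319-150547348, plus strand: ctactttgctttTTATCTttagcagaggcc
Klf1, chr8:84901890-84901919, plus strand: tttgcctgggtcTTATCAgggaagacagcc
Epb42, chr2:121037086-121037115, minus strand: gtctctatttccTTATCTcgttcaaacaga
Rhag, chr17:40811106-40811135, plus strand: agtcctctgctcTTATCAacactatacagc
Rhd, chr4:134864481-134864510, plus strand: cccggcagcctgAGATAAgacctttggcgg
Ermap, chr4:119190045-119190074, minus strand: tgaacgctcgctTTATCAggggtgggcaga
The first base of the match lay 86 bases before the start site for Alas2, 80 for Klf1, 226 for Epb42, 31 for Rhag, 43 for Rhd and 67 for Ermap. These distances count to the start site of each window. The Rhag stretch lies after the first base of the gene as RefSeq places it (chr17:40811099), because the window belongs to a later start site. The start site of the Ermap window also lies inside the gene, which begins at chr4:119190013 on the minus strand. Letters of the type that KLF1 binds, CCNCNCCC on either strand, occurred in 3 of the 7 windows (Alas2, Rhd and Gata1) and in 49.5% of all windows. In Gata1 the stretch around such a match lies at chrX:7967925-7967956, inside the gene, which begins at chrX:7976663 on the minus strand. The Gata1 window thus also belongs to a later start site, and its lack of GATA letters holds for that window only. Alas2, the gene whose level passed the test, is shown with its 250 bases before the start site, again with the GATA letters in capitals; the window holds 4 matches to CCNCNCCC.
Alas2, chrX:150547167-150547416, plus strand: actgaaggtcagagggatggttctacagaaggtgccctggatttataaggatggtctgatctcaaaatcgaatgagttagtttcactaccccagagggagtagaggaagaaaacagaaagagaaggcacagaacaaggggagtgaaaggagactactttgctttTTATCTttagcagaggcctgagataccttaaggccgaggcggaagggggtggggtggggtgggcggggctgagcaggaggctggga
These matches describe letters only, and no binding was measured.

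Alas2, on chromosome X at 150547417 to 150570622, encodes the red cell form of 5-aminolevulinate synthase, the first and rate-setting enzyme of heme synthesis in these cells. Its signal was 678, 441 and 423 on the 3 wild type arrays and 2272, 1449 and 954 on the TGFB KO arrays. All TGFB KO arrays therefore lay above all wild type arrays, though they spread over more than the wild type did. In INFko TGFB+ the Alas2 signal was 616, 533 and 539, and in IFNko TGFB1 KO it was 472, 985 and 588. IFNko TGFB1 KO arrays 1 and 3 fell among the control arrays and array 2 lay just above the lowest TGFB KO array. The order of the group means was TGFB KO (1558 ± 666), IFNko TGFB1 KO (682 ± 269), INFko TGFB+ (562 ± 46.2) and wild type (514 ± 142; SD, n = 3).

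The levels were compared as log2(signal + 16) after quantile normalization, with limma and Benjamini-Hochberg adjustment over 12760 genes; values after ± are then standard errors. In TGFB KO against wild type, which asks what loss of Tgfb1 does where Ifng is intact, Alas2 rose by 1.51 ± 0.33 (adjusted p = 0.00712, 95% interval 0.77 to 2.24), a 2.84-fold change on that scale. It passed when each array was left out in turn (adjusted p between 0.00368 and 0.0305). Alas2 was 1 of 8 erythroid genes called, against 24.1% of all genes tested (12.2% higher and 11.9% lower). A count of 1 in 8 is near the share of all genes called higher, so the count says nothing particular about the list.

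**Figure D1:**
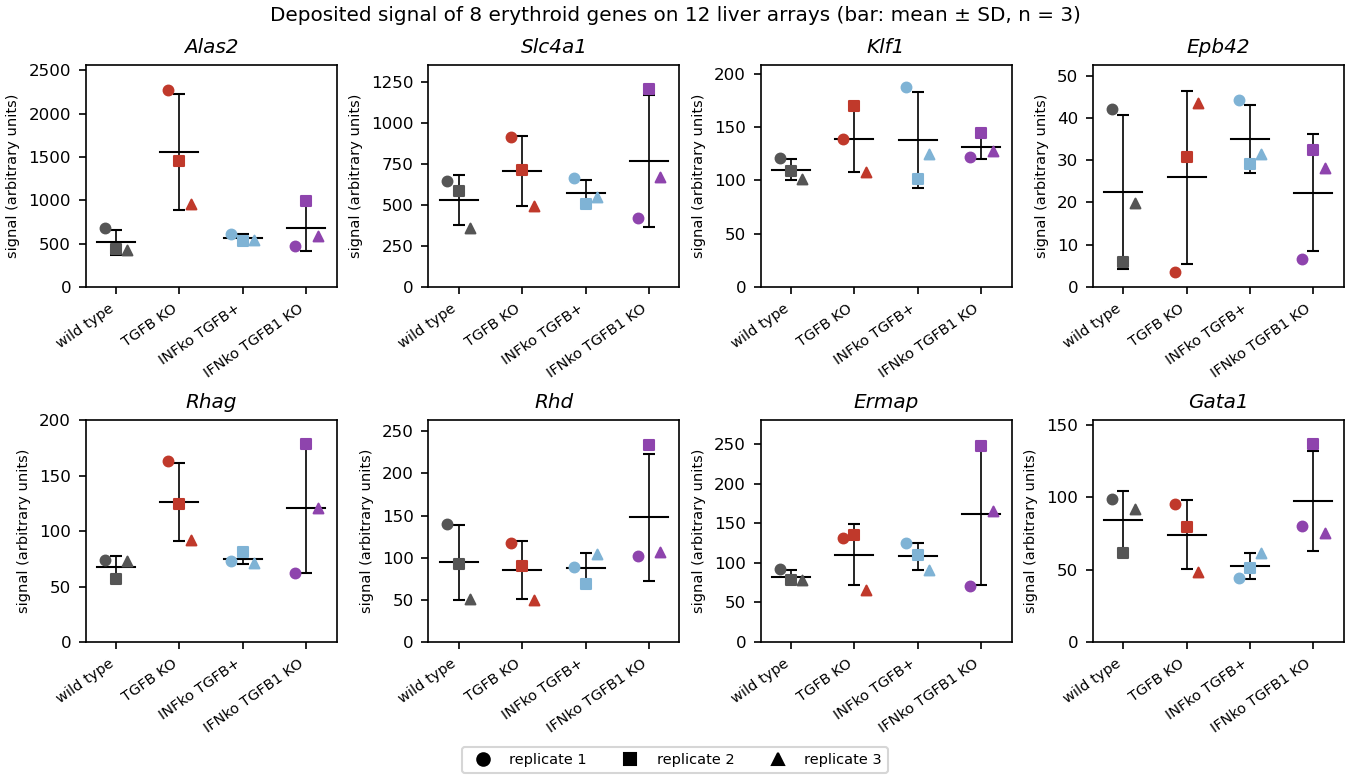
Deposited signal (arbitrary linear units, y axis) of each of the 8 genes in the 4 groups (x axis); each symbol is 1 array, its shape the replicate number, and the bars give the mean ± SD of 3 arrays. Alas2 reads 954 to 2272 in TGFB KO, above the 423 to 678 of wild type, and Rhag reads 92.4 to 163 against 57.1 to 73.8; the arrays of these 2 groups overlap for the other 6 genes.

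With Ifng also disrupted, the same loss of Tgfb1 gave a smaller measured difference in Alas2. In IFNko TGFB1 KO against INFko TGFB+ it was 0.28 ± 0.33 (adjusted p = 0.583 by limma, interval -0.45 to 1.01). The difference of the 2 effects was -1.23 ± 0.47, with an unadjusted p = 0.0244 from the limma fit and an adjusted p = 0.33, so the difference itself did not pass. None of the 8 passed it, against 0.87% of all genes. Alas2 was the 1 gene of the 8 at an unadjusted p under 0.05 by limma, beside 1510 of the 12760 genes tested. Set directly against TGFB KO, Alas2 in IFNko TGFB1 KO differed by -1.09 ± 0.33 (adjusted p = 0.0894 by limma), and the arrays overlapped. That comparison passed without TGFB KO replicate 3 (adjusted p = 0.0427), without IFNko TGFB1 KO replicate 2 (0.0393) and with a pseudocount of 64 (0.0463). It shares its arrays with the other comparisons and is not a separate reading of them.

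Gata1, on chromosome X at 7959260 to 7976663, encodes the zinc finger factor that red cell precursors, megakaryocytes and mast cells need. Its signal was 98.8, 61.2 and 92.1 in wild type and 95.1, 79.0 and 48.0 in TGFB KO. It was 44.1, 51.0 and 61.7 in INFko TGFB+ and 79.8, 137 and 75.5 in IFNko TGFB1 KO. The INFko TGFB+ arrays were the lowest as a group and overlapped wild type at its lowest array. In signal they lay below all IFNko TGFB1 KO arrays, and after normalization these 2 groups overlapped. Gata1 differed by -0.20 ± 0.28 in TGFB KO against wild type (adjusted p = 0.659), by 0.42 ± 0.28 in IFNko TGFB1 KO against INFko TGFB+ (adjusted p = 0.309) and by -0.52 ± 0.28 in INFko TGFB+ against wild type (adjusted p = 0.91), all by limma. The first of these values has the opposite sign to that of Alas2, and none of the 3 passed the test.

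Klf1, on chromosome 8 at 84901982 to 84905291, encodes the Krüppel-like factor that drives adult beta globin. Its signal kept to a narrow range, 121, 109 and 101 in wild type, 139, 170 and 108 in TGFB KO, 188, 101 and 124 in INFko TGFB+ and 122, 145 and 128 in IFNko TGFB1 KO. The highest and the lowest of the 12 both came from INFko TGFB+. The measured differences were 0.20 ± 0.22 in TGFB KO against wild type (interval -0.29 to 0.68) and -0.23 ± 0.22 in IFNko TGFB1 KO against INFko TGFB+ (interval -0.71 to 0.26). These intervals leave out a doubling in either comparison.

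Slc4a1, on chromosome 11 at 102348820 to 102365281, encodes band 3, the anion exchanger that anchors the red cell skeleton. Its signal was 648, 582 and 359 in wild type, 914, 712 and 493 in TGFB KO, 662, 507 and 549 in INFko TGFB+ and 423, 1209 and 671 in IFNko TGFB1 KO. The groups overlapped in every comparison, and IFNko TGFB1 KO spanned nearly the whole range of the 12. TGFB KO differed from wild type by 0.38 ± 0.36 (adjusted p = 0.492) and IFNko TGFB1 KO from INFko TGFB+ by 0.37 ± 0.36 (adjusted p = 0.489; limma). A second Slc4a1 probe set read otherwise, with mean signals of 233 ± 41.3 in wild type, 455 ± 134 in TGFB KO, 429 ± 88.2 in INFko TGFB+ and 562 ± 208 in IFNko TGFB1 KO (SD, n = 3). On it both TGFB KO and INFko TGFB+ lay above all wild type arrays, by 0.83 ± 0.28 and 0.80 ± 0.28, and neither passed (adjusted p of 0.064 and 0.886 by limma over all probe sets). Its remaining probe set was dim, with means between 24.7 and 34.7.

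Epb42, on chromosome 2 at 121017891 to 121036877, encodes protein 4.2, which ties band 3 to the skeleton. Its mean log2 level of 5.33 lay just above the filter on low levels, which stood at 5.25. Its signal was 42.0, 5.81 and 19.8 in wild type, 3.48, 30.7 and 43.6 in TGFB KO, 44.2, 29.2 and 31.5 in INFko TGFB+ and 6.49, 32.3 and 28.1 in IFNko TGFB1 KO. Wild type, TGFB KO and IFNko TGFB1 KO each held both high and low arrays, and INFko TGFB+ held none of the low ones. Epb42 passed in no comparison, with standard errors of 0.48 in each of the 4 comparisons of 2 groups. Its second probe set missed the filter and had a mean signal of 47.1 ± 8.58 in IFNko TGFB1 KO and of 10.4 to 17.0 in the other groups.

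Rhag and Rhd encode the Rh-associated glycoprotein and the Rh protein, partners in the Rh complex of the membrane, and lie on chromosome 17 at 40811099 to 40844094 and chromosome 4 at 134864536 to 134896172. Rhag signal was 73.8, 57.1 and 72.9 in wild type and 163, 125 and 92.4 in TGFB KO. All TGFB KO arrays were above all wild type arrays, which holds for 2 of the 8 genes (Alas2 and Rhag) and for 18.4% of all genes. In INFko TGFB+ the Rhag signal was 73.5, 81.2 and 71.4, and in IFNko TGFB1 KO it was 61.9, 179 and 121. The IFNko TGFB1 KO arrays lay on both sides of INFko TGFB+, array 1 below it and arrays 2 and 3 above.

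Rhag differed by 0.68 ± 0.35 in TGFB KO against wild type (adjusted p = 0.191) and by 0.20 ± 0.35 in IFNko TGFB1 KO against INFko TGFB+ (adjusted p = 0.724; limma). Without the array IFNko TGFB1 KO 1 it passed in both, with an adjusted p = 0.0271 and, at a difference of 0.70, an adjusted p = 0.0433. In that fit 26.8% and 23.6% of all genes passed. The call of Rhag therefore turns on 1 array, and in TGFB KO against wild type on an array that is in neither group and enters through the shared spread. Rhd signal was 140, 92.1 and 51.5 in wild type, 117, 89.6 and 49.8 in TGFB KO, 89.2, 68.3 and 105 in INFko TGFB+ and 103, 234 and 106 in IFNko TGFB1 KO. The 4 groups overlapped apart from array 2 of IFNko TGFB1 KO, which was highest. Rhd differed by -0.14 ± 0.38 in TGFB KO against wild type and by 0.35 ± 0.38 in IFNko TGFB1 KO against INFko TGFB+, with an adjusted p of 0.829 and 0.548 (limma).

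Ermap, on chromosome 4 at 119175457 to 119190013, encodes the erythroid membrane-associated protein that carries the Scianna blood group in humans. Its signal was 91.7, 78.5 and 77.7 in wild type, 131, 135 and 65.6 in TGFB KO, 125, 109 and 91.1 in INFko TGFB+ and 70.2, 247 and 166 in IFNko TGFB1 KO. The 3 wild type arrays lay close together, and after normalization all INFko TGFB+ arrays were above them, which was so in that direction for 6.47% of all genes. Ermap differed by 0.24 ± 0.42 in TGFB KO against wild type (adjusted p = 0.723), by 0.11 ± 0.42 in IFNko TGFB1 KO against INFko TGFB+ (adjusted p = 0.877) and by 0.32 ± 0.42 in INFko TGFB+ against wild type (adjusted p = 0.942), all by limma.

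**Figure D2:**
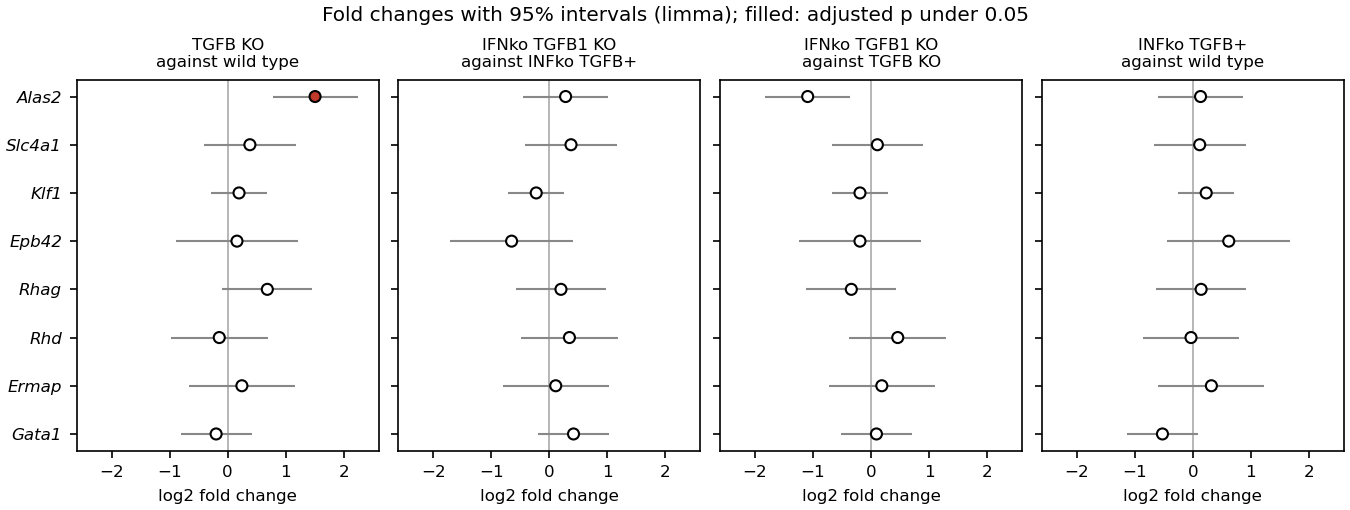
Log2 fold change (x axis, on the log2(signal + 16) scale) of the 8 genes (y axis) in 4 comparisons of 2 groups; points are limma estimates, lines their 95% intervals, and a filled point marks an adjusted p under 0.05. The filled point is Alas2 in TGFB KO against wild type, 1.51 with an interval of 0.77 to 2.24, and the widest intervals are those of Epb42.

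Read as a list, the 8 genes had a median difference of 0.22 in TGFB KO against wild type and 0.24 in IFNko TGFB1 KO against INFko TGFB+, beside -0.06 and -0.01 for all genes. In the second of these 0 of the 8 passed by limma, against 25.8% of all genes. At an unadjusted p under 0.05 there were 0 of the 8, against 4762 of the 12760 genes tested. In IFNko TGFB1 KO against TGFB KO 0 passed, against 5.36%. Alas2 was there the 1 gene of the 8 at an unadjusted p under 0.05, beside 2635 of all genes. In INFko TGFB+ against wild type 0 of the 8 and 0 of all genes (0%) passed by limma, with 0 of the 8 and 650 of all genes at an unadjusted p under 0.05. Centring each array on its median instead of quantile normalization moved the median of all genes to -0.15 in IFNko TGFB1 KO against INFko TGFB+. The share of called genes that were higher then went from 50.5% to 61.9% in TGFB KO against wild type and from 49.2% to 34.6% in IFNko TGFB1 KO against INFko TGFB+.

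**Figure D3:**
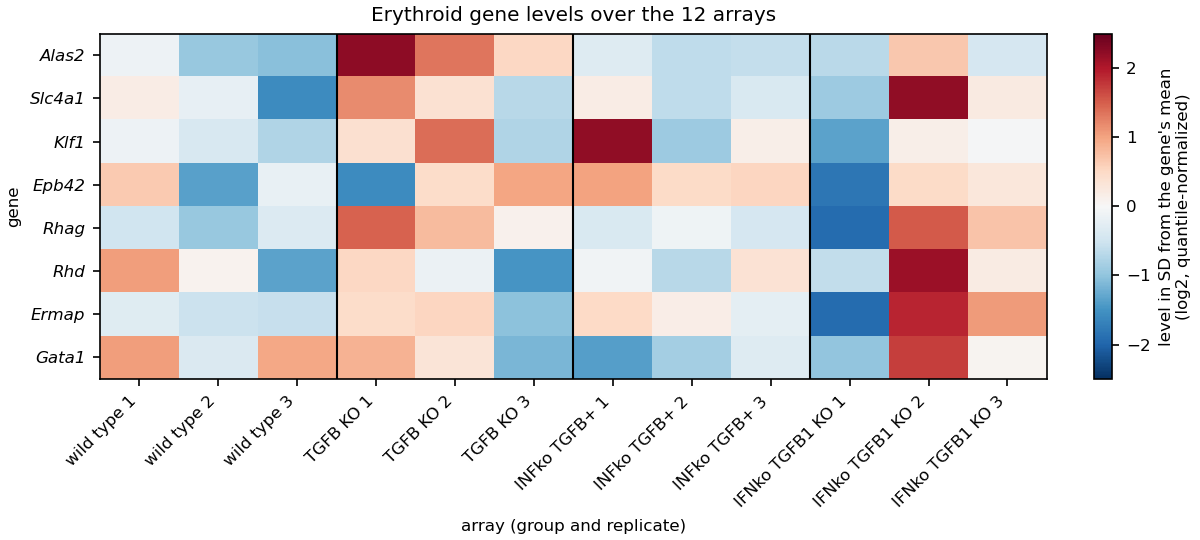
Level of each of the 8 genes (rows) on each of the 12 arrays (columns, by group), as the distance from the mean of the gene in SD units after quantile normalization; red is above and blue below that mean. IFNko TGFB1 KO 2 is red for most genes, with a mean over the 8 of 1.35, and IFNko TGFB1 KO 1 is blue, with a mean of -1.27. In deposited signal IFNko TGFB1 KO 1 was the lowest array for 0 of the 8.

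The SD of the log2 level was larger in IFNko TGFB1 KO than in any other group for 5 of the 8 genes (Slc4a1, Rhag, Rhd, Ermap and Gata1). Array 2 had the highest signal of the 12 for the same 5. After normalization array 1 was among the lowest 3 for 7 of the 8. In deposited signal it was the lowest of the 12 for 0 of the 8. Its rank from the lowest was then 6 for Klf1, 7 for Rhd, 8 for Gata1 and 2 or 3 for the others. Gata1 read 79.8 on array 1 and 75.5 on array 3 in deposited signal, but 6.11 and 6.51 after normalization. The low place of array 1 thus differs between deposited and normalized values. The ratio of array 2 to array 1 in signal ran from 1.18 for Klf1 to 4.97 for Epb42, and for Ermap it was 3.52. In deposited signal arrays 2 and 3 of the group both lay above every INFko TGFB+ array for the same 5 genes, and array 1 did not for Slc4a1, Rhag, Rhd or Ermap. After normalization this held for arrays 2 and 3 apart from Rhd, which on array 3 (log2 level 6.91) lay below INFko TGFB+ 3 (6.98). Array 1 is the one that stood apart over all probe sets, and its part in these values was not tested beyond the fits without it. How many of all genes share these array patterns was not counted, so the counts cannot be read as particular to the 8.

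The 8 genes did not follow each other equally over the 12 arrays, which share their groups and their preparation. The Pearson correlation of a gene with the mean standardized level of the other 7 was 0.86 for Ermap and for Slc4a1, 0.82 for Rhag and 0.65 for Rhd. It was 0.55 for Alas2, 0.50 for Klf1, 0.49 for Gata1 and 0.19 for Epb42. Outside the list, the genes most like the mean of the 8 were Itga2b, the integrin chain of platelets and their precursors (Pearson r = 0.93 over 12 arrays), Cabin1 (0.92) and E2f2, a cell cycle factor that acts in red cell maturation (0.91). Then followed 1110008P14Rik (0.90), Btbd10 (0.89), Dnajc18 (0.88), Nfe2, a globin gene activator (0.88), Rbm42, Muc20 and Taf1c (0.87 each). These r are of levels after normalization. Without IFNko TGFB1 KO 2 they ran from 0.80 (Nfe2) to 0.90 (Itga2b), and the part of IFNko TGFB1 KO 1 in them was not tested. Nfe2 read 80.7, 59.4 and 57.7 in wild type, 186, 89.4 and 96.7 in TGFB KO, 69.4, 61.0 and 73.0 in INFko TGFB+ and 58.2, 291 and 137 in IFNko TGFB1 KO. It shows the same array 2 high and array 1 low, and it passed in no comparison.

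Among other transcription factors and cofactors of the red cell lineage, 3 of 9 rose and none fell in TGFB KO against wild type, and 1 rose in IFNko TGFB1 KO against INFko TGFB+. Over all genes tested, 24.1% were called in the first comparison (12.2% higher and 11.9% lower) and 25.8% in the second, 49.2% of these higher. A list count near these shares, here and below, says nothing particular about the list. Lyl1, a helix-loop-helix factor of blood stem cells and precursors, read 108, 53.5 and 84.8 in wild type and 240, 192 and 176 in TGFB KO. It read 96.9, 82.4 and 101 in INFko TGFB+ and 202, 340 and 196 in IFNko TGFB1 KO, so that both groups without Tgfb1 lay above their controls on every array. Lyl1 rose by 1.10 ± 0.25 in each (adjusted p of 0.00776 and 0.0075 by limma). Lmo2, a bridging partner of GATA1 and TAL1, rose by 0.62 ± 0.17 (adjusted p = 0.0224) and Bcl11a, a repressor of fetal globin genes, by 1.02 ± 0.27 (adjusted p = 0.0175) in TGFB KO against wild type. Without wild type replicate 3 the 3 rises became 1. Lmo2 and Bcl11a each missed the threshold in 3 of the alternatives tried, at an adjusted p of up to 0.076 for Lmo2 and 0.0645 for Bcl11a. The list median was 0.40 in TGFB KO against wild type.

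The globin list could be read through 1 gene, since the other members had no single-symbol probe set past the filter. Hbb-b2, an adult beta globin, read 119, 129 and 179 in wild type, 638, 547 and 440 in TGFB KO, 275, 203 and 189 in INFko TGFB+ and 225, 493 and 306 in IFNko TGFB1 KO. The TGFB KO arrays lay above all wild type arrays. On this probe set Hbb-b2 rose by 1.74 ± 0.28 in TGFB KO against wild type (adjusted p = 0.000989 by limma), and it kept its call in all 17 alternatives tried. In IFNko TGFB1 KO against INFko TGFB+ it differed by 0.47 ± 0.28 (adjusted p = 0.245), and the difference of the 2 effects was -1.27 ± 0.39 (adjusted p = 0.211). A second Hbb-b2 probe set did not follow: it had mean signals of 83.7 ± 28.9 in wild type and 68.3 ± 13.2 in TGFB KO, a difference of -0.23 ± 0.22 (adjusted p = 0.542). Beta globin genes are near-identical copies, so what either probe set reads is uncertain.

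Of 10 other genes of heme synthesis, 1 rose, 3 fell and 6 did not pass in TGFB KO against wild type, beside 24.1% of all genes called. The list median was -0.35, and the falls numbered 1 under median centring. In IFNko TGFB1 KO against INFko TGFB+ none rose and 2 fell, beside 25.8% of all genes called. None fell there without IFNko TGFB1 KO replicate 2 or without any single INFko TGFB+ array. Alad, which joins 2 molecules of aminolevulinate, the product of ALAS2, read 5330.3, 5600.3 and 5785 in wild type and 2488, 2885 and 2655 in TGFB KO. Every TGFB KO array was below every wild type array, and Alad fell by 1.01 on the log2 scale, with a standard error of 0.16 (adjusted p = 0.000949 by limma), in all 17 alternatives too. Uros and Urod, which make and trim the uroporphyrinogen ring, changed by -0.75 ± 0.15 (adjusted p = 0.00385) and -0.83 ± 0.16 (adjusted p = 0.00374).

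Uros missed the threshold when all its probe sets were averaged (adjusted p = 0.384) and under median centring (0.0672), and Urod under median centring (0.0537). In IFNko TGFB1 KO against INFko TGFB+ Alad changed by -0.50 ± 0.16 (adjusted p = 0.0375) and Urod by -0.48 ± 0.16 (adjusted p = 0.0494), and these calls were lost in 4 and 10 of the 17 alternatives. Against TGFB KO, Alad in IFNko TGFB1 KO was higher by 0.63 ± 0.16 (adjusted p = 0.0435), lost in 15 of 17. The gene that rose in TGFB KO was Slc25a37, mitoferrin, which carries iron into the mitochondria of red cell precursors. It was named after its value was seen, and rose by 0.84 (adjusted p = 0.0433), lost in 9 of 17. These enzymes are made in hepatocytes as well, and the summed signal of the 8 hepatocyte markers was lower on every TGFB KO array (99074 to 119777) than on any wild type array (131263 to 133006), though none of the 8 passed singly. The median log2 difference of these 8 markers in TGFB KO against wild type was 0.03, beside -0.06 for all genes. Of the 8, Cps1 and Hnf4a fell in IFNko TGFB1 KO against INFko TGFB+, and these calls were lost in 8 and 13 of the 17 alternatives. Without IFNko TGFB1 KO replicate 2 they read -0.41 (adjusted p = 0.12) and -0.42 (adjusted p = 0.122). The part of hepatocytes in the values of Alad, Uros and Urod was not tested.

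**Figure D4:**
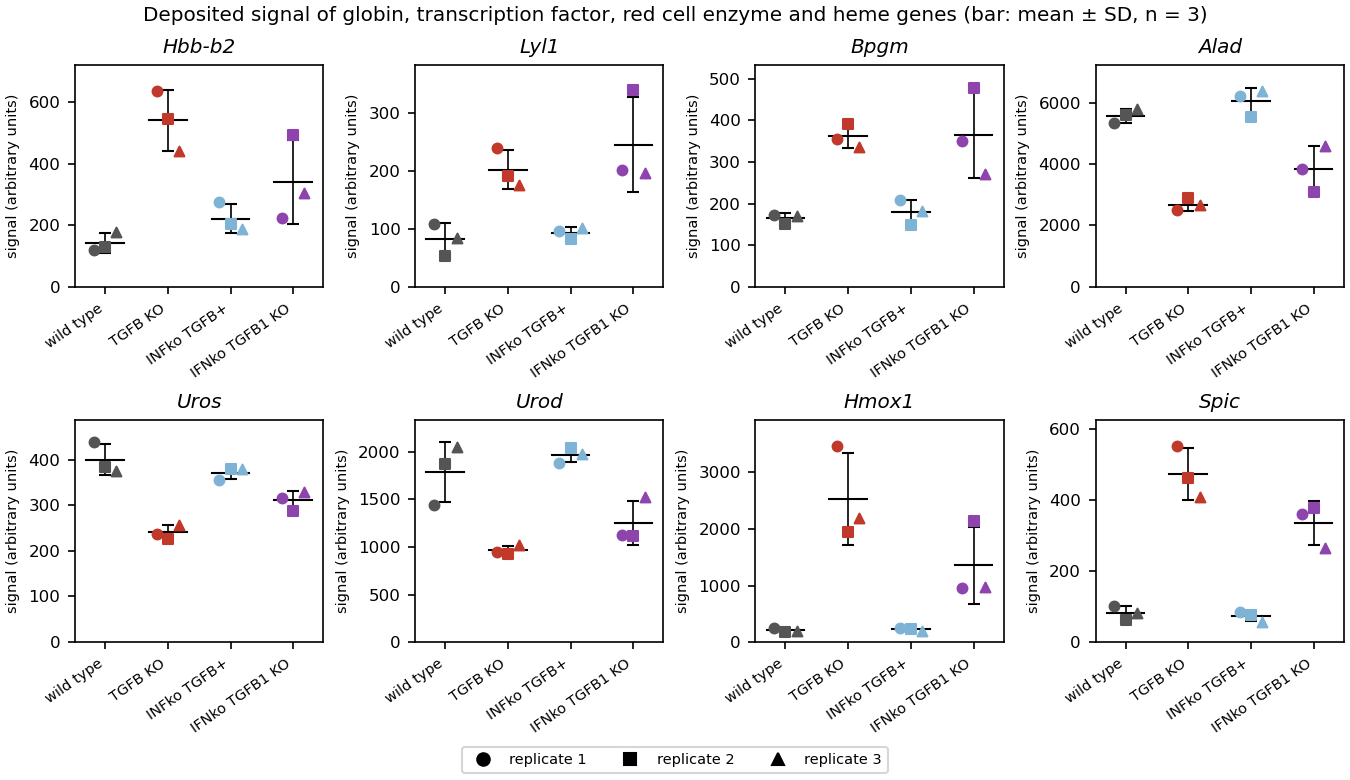
Deposited signal (arbitrary linear units, y axis) of 8 genes in the 4 groups (x axis), chosen among the named genes of the globin, transcription factor, red cell enzyme, heme synthesis and red cell clearance lists; symbols are arrays by replicate number and bars the mean ± SD of 3 arrays. Hbb-b2, Lyl1, Bpgm, Hmox1 and Spic are higher and Alad, Uros and Urod lower in TGFB KO than in wild type, with no overlap between the arrays of the 2 groups. The named genes are those of smallest p in their lists, so the lack of overlap follows largely from the choice. A second Hbb-b2 probe set, not drawn, differed by -0.23.

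Of 14 other genes of the red cell membrane and skeleton, 1 rose in TGFB KO against wild type and 2 rose in IFNko TGFB1 KO against INFko TGFB+, with medians of 0.20 and 0.19. The shares of all genes called in these comparisons were 24.1% and 25.8%. Cd47, the surface protein that protects red cells and many other cells from phagocytes, rose by 1.02 ± 0.17 in each (adjusted p of 0.00134 and 0.00151 by limma), the second lost under median centring (0.182). Icam4, a red cell adhesion protein, rose by 0.91 ± 0.25 in IFNko TGFB1 KO against INFko TGFB+ (adjusted p = 0.0191), lost in 3 of 17 alternatives. Dmtn and Aqp1, a skeleton protein and a water channel, passed in neither comparison, with -0.75 ± 0.31 and -0.78 ± 0.29 in TGFB KO against wild type (adjusted p of 0.107 and 0.0756).

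Of 11 red cell enzymes and maturation genes, 1 rose and 1 fell in both of these comparisons, where 24.1% and 25.8% of all genes were called. Bpgm, which makes the 2,3-bisphosphoglycerate that loosens oxygen from hemoglobin, read 172, 151 and 171 in wild type and 356, 391 and 336 in TGFB KO. It rose by 0.98 ± 0.20 (adjusted p = 0.00454), and by 0.91 ± 0.20 in IFNko TGFB1 KO against INFko TGFB+ (adjusted p = 0.00643 by limma), the second lost in 2 of 17 alternatives. Cat, catalase, abundant in red cells and in hepatocytes alike, changed by -1.06 ± 0.33 (adjusted p = 0.0364, lost in 10 of 17) and -1.84 ± 0.33 (adjusted p = 0.00222). Ube2l6, an enzyme that attaches the interferon-induced protein ISG15, was lower in IFNko TGFB1 KO than in TGFB KO by -1.92 ± 0.33 (adjusted p = 0.00724).

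Of 13 genes of erythropoietin signalling and iron supply, 4 rose and 1 fell in TGFB KO against wild type, beside 24.1% of all genes called. In IFNko TGFB1 KO against INFko TGFB+ 2 rose and 3 fell, beside 25.8% of all genes called. Jak2, the kinase of the erythropoietin receptor and of many cytokine receptors, read 153, 159 and 190 in wild type and 411, 344 and 438 in TGFB KO. Jak2 rose by 1.09 ± 0.18 (adjusted p = 0.00113), and by 0.85 ± 0.18 in IFNko TGFB1 KO against INFko TGFB+ (adjusted p = 0.00498 by limma), the second lost under median centring (0.63, adjusted p = 0.0675). Bcl2l1, which keeps late precursors alive, rose by 0.72 ± 0.21 in TGFB KO (adjusted p = 0.0301, lost in 5 of 17). Stat5a, which acts below JAK2, changed by -0.84 ± 0.21 in IFNko TGFB1 KO against INFko TGFB+ (adjusted p = 0.0116). Hamp, hepcidin, the hepatocyte hormone that limits iron release, rose there by 1.80 ± 0.49 (adjusted p = 0.0189, lost in 3 of 17). The other calls in TGFB KO, named after their values were seen, were rises of Kit, the stem cell factor receptor, and Pim1, a kinase, and a fall of Cish, a cytokine signalling inhibitor. Without wild type replicate 3 the calls of Kit (adjusted p = 0.0502), Pim1 (0.0804), Bcl2l1 (0.0982) and Cish (0.111) were lost, and without TGFB KO replicate 1 likewise (0.0833, 0.144, 0.108 and 0.0959). They were also lost without TGFB KO replicate 2, and without wild type replicate 1 except for Cish, while Jak2 kept its call there in all 17 alternatives. The 3 falls in IFNko TGFB1 KO against INFko TGFB+ became 1 without IFNko TGFB1 KO replicate 1 or INFko TGFB+ replicate 1 or 2, and the 2 rises became 1 without IFNko TGFB1 KO replicate 2 or INFko TGFB+ replicate 2 or 3.

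Of 9 genes of the red cell niche and of red cell clearance, 4 rose in each comparison and none fell, beside 24.1% and 25.8% of all genes called. These were Hmox1, Cd163, Spic and Vcam1. Hmox1, heme oxygenase, which opens the heme ring, read 257, 182 and 196 in wild type and 3466, 1954 and 2187 in TGFB KO. In INFko TGFB+ it read 253, 232 and 203 and in IFNko TGFB1 KO 962, 2143 and 976. Hmox1 rose by 3.41 ± 0.32 (adjusted p = 2.61e-05) and 2.47 ± 0.32 (adjusted p = 0.000351). Spic, the factor that marks macrophages which recycle red cells, rose by 2.24 ± 0.21 and 1.92 ± 0.21 (adjusted p of 2.41e-05 and 0.000125). Cd163, the hemoglobin-haptoglobin receptor of macrophages, rose by 2.20 ± 0.24 and 2.00 ± 0.24, and Vcam1, an adhesion protein of endothelium and of niche macrophages, by 2.16 ± 0.25 and 2.64 ± 0.25. All 4 kept both calls in the 17 alternatives.

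Markers of other cells moved along with these groups. All 10 of 10 macrophage markers rose in both comparisons, and their summed signal was 7268 to 9254 in wild type, 45783 to 50020 in TGFB KO, 7261 to 7332 in INFko TGFB+ and 31977 to 44513 in IFNko TGFB1 KO. All 8 of 8 T cell markers rose too, with summed signals of 150 to 167, 803 to 928, 101 to 199 and 2123 to 3419 in the same order. Of 10 neutrophil and myeloid precursor genes 6 and 8 rose, of 9 megakaryocyte and platelet genes 1 (Gp9) and 2 (Pf4 and Vwf), of 7 B and plasma cell genes 0 and 1, and of 3 mast cell and basophil genes 0 and 1. Of 11 proliferation genes 1 (Top2a) and 10 rose. Beside these counts, 24.1% and 25.8% of all genes were called in the 2 comparisons, in either direction. The call of Top2a in TGFB KO was lost in 11 of 17 alternatives, and the 10 rises became 6 without INFko TGFB+ replicate 2 and 3 under median centring, where the lost calls had an adjusted p of 0.0621 to 0.329. The 6 neutrophil and myeloid precursor rises in TGFB KO became 1 when TGFB KO replicate 1 was left out, and also without replicate 3 of wild type. The 8 in IFNko TGFB1 KO became 5 when replicate 2 of either group was left out, and under median centring. The single B and plasma cell rise was lost without any one INFko TGFB+ or wild type array, TGFB KO replicate 2 or 3, or IFNko TGFB1 KO replicate 2, and the single mast cell and basophil rise without replicate 2 of either group compared. Without the array IFNko TGFB1 KO 1, the counts in IFNko TGFB1 KO against INFko TGFB+ became 2 rises for the transcription factors, 1 fall for heme synthesis, 1 rise for the membrane genes, 4 rises and 1 fall for erythropoietin and iron supply and 3 rises for B and plasma cells. In TGFB KO against wild type they became 1 fall beside the rise for the membrane genes, 2 rises for the enzymes, 1 fall for B and plasma cells and 0 for proliferation. No marker of these lists was listed at 0. The part of these cells in the values of Alas2, Hbb-b2 and the other genes was not tested.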

How the data were processed

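Per the labels, Trizol was used to extract the liver RNA of 12 mice, which received a one-cycle biotin label. The values deposited by the authors are linear signal intensity per probe set, and from the values each array has a mean of 150.001 without its lowest and highest 2 percent, so it had been scaled before deposit; the algorithm is not given in the sources used here. Log2(signal + 16) was quantile-normalized over the 12 arrays. Of 45101 probe sets, 34958 carry 1 symbol in GEO's platform table, 932 several and 9211 none; 34754 symbols were updated through RefSeq (GRCm38.p6), which also gave gene positions and promoter windows. The 64 control probe sets and those with a mean under the 40th percentile (log2 level 5.25) were left out, and each gene was read from its brightest single-symbol probe set, which left 12760 genes.

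Comparisons were made with limma 3.58.1 under R 4.3.3 (a mean per group over 12 arrays, eBayes with 8 residual and 3.44 prior degrees of freedom, two-sided, Benjamini-Hochberg, threshold 0.05); probe sets were also tested singly. The 5 contrasts were the 2 effects of Tgfb1 loss, their difference, IFNko TGFB1 KO against TGFB KO and INFko TGFB+ against wild type. With 3 arrays per group, their number limits the precision. The p-values set each difference against the spread between these mice, pooled over the 4 groups. The number of replicate 1 of INFko TGFB+ is the one left over, as its title has none. The procedure was tested on simulated data, in which a gene had the same spread in every group and no array stood apart. That test cannot show how the array IFNko TGFB1 KO 1 or unequal spreads affect the calls.

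The 8 genes and the lists were chosen with earlier results of these data known. Named are the 8, up to 4 genes of smallest p per list, the 10 genes most like the mean of the 8, and Tgfb1 and Ifng. Alternatives were the scaling, pseudocounts of 1 and 64, no filter and the 60th percentile, and the mean of probe sets. Others were array weights, the replicate number as a block, the arrays of a contrast alone and leaving out each array. The alternatives for list genes and list counts and a fresh normalization without IFNko TGFB1 KO 1 were added after seeing the data. For list genes the 17 alternatives were the deposited scaling, median centring, the 2 pseudocounts, the mean of probe sets and each of the 12 arrays left out. The arrays left out include those outside the groups compared. The other filters, array weights, the block and the arrays of a contrast alone were not tried for list genes.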

Additional observations from a re-analysis of the deposited data

Results flagged for a closer look

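Cd3g, the gamma chain of the T cell receptor complex and here a marker of other cells, was the named gene whose response to Tgfb1 loss differed between the Ifng backgrounds by the test of the difference itself. It rose by 2.13 ± 0.28 in TGFB KO against wild type and by 4.14 ± 0.28 in IFNko TGFB1 KO against INFko TGFB+. The difference was 2.01 ± 0.40 (adjusted p = 0.0416, limma with Benjamini-Hochberg), and it missed the threshold in 11 of 17 alternatives (adjusted p between 0.0046 and 0.133). No erythroid gene of the 8 met the same test.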

How the results depend on the processing

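For the 8 genes the standard errors were 0.22 to 0.48 in the comparisons of 2 groups. In the difference of the effects they were 0.31 to 0.68. With 3 arrays per group, a change of less than about the 95% interval of each could not be told from the spread. The number of the 8 genes called, 1, 0, 0, 0 and 0 in the 5 comparisons, stayed so except as follows. With a pseudocount of 64 it was 1 in IFNko TGFB1 KO against TGFB KO (Alas2, adjusted p = 0.0463). With each array left out in turn it ranged from 1 to 2 in TGFB KO against wild type, from 0 to 1 in IFNko TGFB1 KO against INFko TGFB+ and from 0 to 1 in IFNko TGFB1 KO against TGFB KO, and was 0 in the other 2. With the arrays normalized anew without IFNko TGFB1 KO 1 it was 2 and 1 in the first 2, through Rhag (0.70, adjusted p = 0.0263, and 0.72, adjusted p = 0.042). Alas2 in TGFB KO against wild type kept its call in every alternative tried, at 1.18 to 1.82 with arrays left out.

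Values that changed sign were all of genes that had not passed. They were Ermap in the difference of effects on values as deposited (0.068). Median centring gave Alas2 in IFNko TGFB1 KO against INFko TGFB+ (-0.037), Slc4a1 in IFNko TGFB1 KO against TGFB KO (-0.18) and Rhd in INFko TGFB+ against wild type (0.078). With array weights they were Slc4a1 (-0.0014) and Gata1 (-0.0043) in IFNko TGFB1 KO against TGFB KO. With the fresh normalization they were Slc4a1 (0.32), Rhag (0.016) and Ermap (0.46) in the difference of effects, and Epb42 (0.27) and Rhag (0.16) in IFNko TGFB1 KO against TGFB KO. The cause was not tested.

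With each array left out, ranges crossed 0 in TGFB KO against wild type for Epb42 (-0.18 to 0.65), Rhd (-0.45 to 0.12) and Gata1 (-0.37 to 0.017). They did in IFNko TGFB1 KO against INFko TGFB+ for Alas2 (-0.018 to 0.47), Slc4a1 (-0.028 to 0.70), Rhag (-0.15 to 0.70), Rhd (-0.033 to 0.63) and Ermap (-0.30 to 0.70), and in the difference for Slc4a1 (-0.41 to 0.32), Rhag (-0.83 to 0.016) and Ermap (-0.54 to 0.46). In IFNko TGFB1 KO against TGFB KO they did for Slc4a1 (-0.29 to 0.44), Epb42 (-0.68 to 0.28), Rhag (-0.69 to 0.16), Ermap (-0.22 to 0.78) and Gata1 (-0.18 to 0.33), and in INFko TGFB+ against wild type for Slc4a1 (-0.13 to 0.29) and Rhd (-0.34 to 0.24).

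Of 18 pairs of same-numbered arrays 4 deviated together with r over 0.1 (range -0.077 to 0.343), 3 of them among the replicate 3 arrays of wild type, TGFB KO and IFNko TGFB1 KO (0.343, 0.161 and 0.108). As not every pair was over 0.1, the numbers were not taken to pair the mice. With the replicate number as a block, 3051, 3277, 84, 571 and 0 genes passed against 3077, 3291, 111, 684 and 0 without it, the number of the 8 genes called was the same, and Alas2 had an adjusted p = 0.00833 in TGFB KO against wild type.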
